A study of Mus musculus with 10 samples.

Results

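The genes described here encode the nuclear-made proteins of the 5 oxidative phosphorylation complexes, together with complex I assembly factors whose symbols share the Nduf prefix. A gene belonged to the set when a probe set of the array carried its symbol alone and that symbol had the form of a complex I (Nduf), complex II (Sdh), complex III (Uqcr, Cyc1), complex IV (Cox4 to Cox8) or complex V (Atp5) gene. This rule, which used no measured value, took 89 of the 19938 genes in the table. They comprised 34 complex I genes, 7 complex I assembly factors, 4 complex II genes, 9 complex III genes, 18 complex IV genes and 17 complex V genes. The 113 probe sets of these genes were reduced to 1 per gene, the one with the highest mean over the 10 arrays. Probe sets of 1 symbol can read different copies of a gene, and whether any of them reads a processed pseudogene in place of the gene was not tested. This bears on Ndufa11, Ndufc1, Cox6c, Atp5pb and Atp5g1, the called genes with a second probe set. Other subunits, among them those read only by probe sets with several symbols, are not analysed here.

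The data are 10 Affymetrix whole-transcript arrays, each hybridised with total RNA of 1 mouse thyroid tumour. The 5 anaplastic thyroid carcinomas (ATC), an undifferentiated tumour type, carried the TPOCreER transgene, a BrafV600E allele and a p53 -/- genotype. The 5 papillary thyroid carcinomas (PTC), a differentiated type, carried TPOCreER and BrafV600E, with no p53 allele named in their labels. All 10 were on a mixed C57BL/6 and 129SvJae strain background, and the age of the mice is not in the labels. TPOCreER is a ligand-inducible Cre recombinase driven by the promoter of thyroid peroxidase, so the mutant allele is switched on in thyroid follicular cells and not in the other cells of a tumour. Tumour type and p53 genotype changed together and cannot be told apart. The tumours are called biological replicates, but the labels do not say that each came from its own mouse, so p-values measure the spread between these samples. Values are log2 intensities, a difference is ATC minus PTC, and a gene was called higher or lower when its adjusted p in limma, corrected over all 19938 genes, was below 0.05.

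Oxidative phosphorylation makes most of the ATP of resting cells. Complex I takes electrons from NADH and complex II takes them from succinate. Complex III passes them through cytochrome c to complex IV, which reduces oxygen, and complex V uses the proton gradient built on the way to make ATP. Most subunits are encoded in the nucleus. Some core subunits of complexes I, III and IV and a part of the membrane sector of complex V come from mitochondrial DNA. In normal follicular cells the mitochondria supply energy for hormone synthesis, and in tumours the balance between this route and glycolysis is a long-studied feature. Many nuclear genes of these complexes have promoters with sites for NRF1, for ETS factors such as GABP, or for YY1.

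Most of the 89 genes differed little between ATC and PTC. Higher in ATC were 8 genes: Sdhb of complex II, Ndufa11 and Ndufc1 of complex I, Cyc1 of complex III, Cox5a of complex IV, and Atp5g1, Atp5pb and Atp5o of complex V. Lower in ATC were 3 genes: Sdha of complex II, and Cox6c and Cox6b2 of complex IV. The remaining 78 genes did not pass the test. The calls amount to 12.4% of the 89 genes, with 8.99% higher and 3.37% lower. Of all 19938 genes, 21.2% were called, 11.5% higher and 9.72% lower. The share among the oxidative phosphorylation genes was thus below the background in both directions. That background includes dim genes. With genes at or below the median level left out, 13.6% of the 81 remaining members and 34.8% of the remaining genes were called. This filter removed Cox6b2 and added the call of Ndufa2. In bulk tumour RNA, fewer cells of a type and less RNA per cell cannot be told apart.

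**Figure D1:**
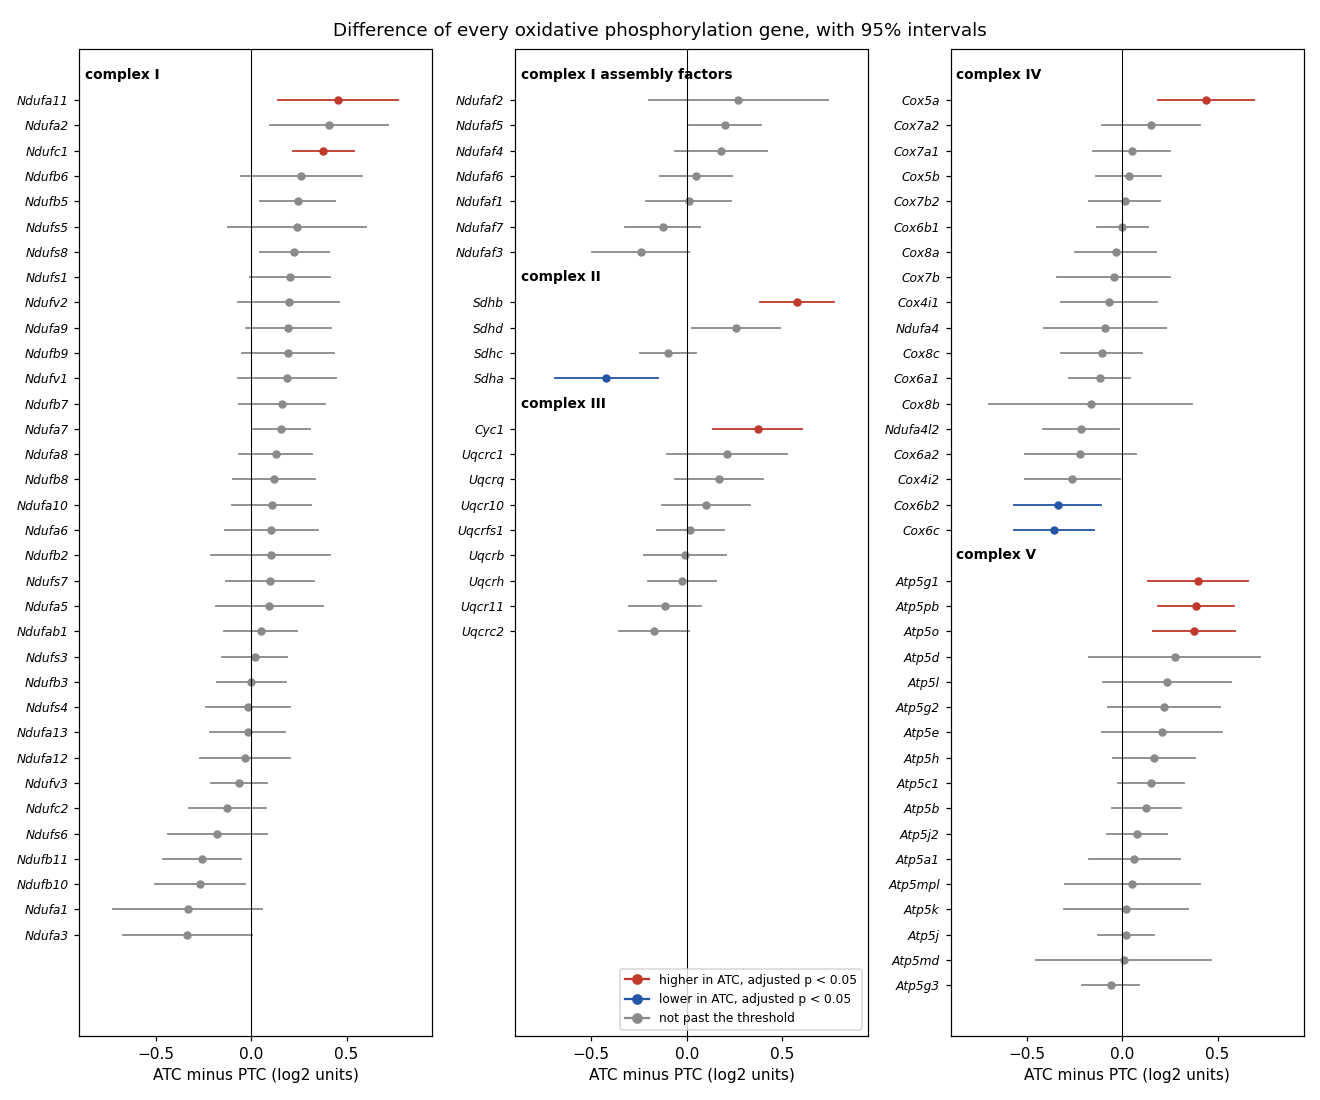
Difference between ATC and PTC (log2 units, horizontal axis) for each of the 89 genes, grouped by complex, with 95% intervals of the limma fit as bars. Genes past the threshold are coloured. All intervals lie between −1 and 1, and 16 of the 17 complex V differences are positive.

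Sizes were narrow. The differences ran from −0.42 to 0.58 with a median of 0.053, beside a median of −0.018 over all genes, dim genes included. Among genes above the median level, the members had a median of 0.099 and all genes one of 0.058. Quantile normalization put the members at 0.025 and all genes at 0.013. The opposite signs of members and all genes were therefore not seen in these fits. The members' median was 0.033 without ATC replicate 2, 0.088 without ATC replicate 4, 0.10 without PTC replicate 1 and 0.085 without PTC replicate 4. Of the 89, 57 were positive and 32 negative. The median absolute difference was 0.157 log2 units, close to the 0.140 of all genes, but the upper end of the distribution was short. A single member, Sdhb, reached 0.5 log2 units (1.12% of the set), while 14% of all genes did. No member reached 1 log2 unit, against 906 of all genes (4.54%). The 95% interval of all 89 genes lay within 1 log2 unit of 0, and that of 63 genes lay within 0.5 log2 units, 70.8% of the set beside 67.3% of all genes. At an unadjusted p under 0.05 were 21 genes (23.6%, against 32.7% of all genes). In 6 genes every ATC tumour lay above every PTC tumour (Sdhb, Cox5a, Atp5g1, Atp5pb, Ndufc1 and Ndufb5), and in 0 genes did every ATC tumour lie below. Non-overlapping groups were seen for 16.9% of all genes.

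**Figure D2:**
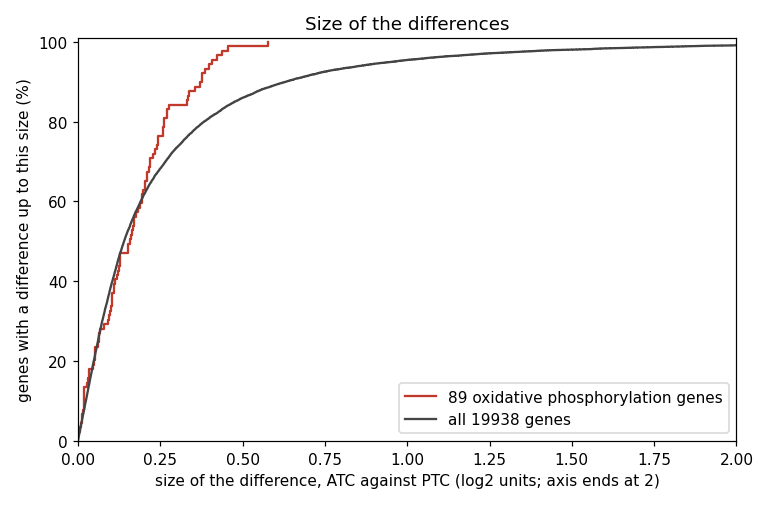
Share of genes (%, vertical axis) whose absolute difference between ATC and PTC is no larger than the value on the horizontal axis (log2 units), for the 89 oxidative phosphorylation genes and for all 19938 genes. Both curves have a similar middle, and the curve of the oxidative phosphorylation genes is complete at 0.58 while 4.54% of all genes lie at 1 or beyond.

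The number of calls depended on single tumours. Without ATC replicate 3, PTC replicate 2 or PTC replicate 3, 5 genes were called higher in place of 8. Lower genes numbered 1 in place of 3 without ATC replicate 1, 3 or 4 or without PTC replicate 2, 3, 4 or 5. Sdhb, Ndufc1, Cox5a, Atp5pb and Atp5o were called in each of the 10 fits that left out 1 tumour.

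The promoters of 3 genes are shown because they belong to the genes at both ends of the range and to the called complex I gene with the largest difference. Each is the 120 bases before the annotated start in RefSeq, assembly GRCm38.p6, on the strand of the gene. Capitals mark the NRF1 core GCATGCGC, searched on both strands; in Ndufa11 they span a match on each strand, and the 2 matches overlap.
Sdhb, chr4:140961151-140961270, plus strand: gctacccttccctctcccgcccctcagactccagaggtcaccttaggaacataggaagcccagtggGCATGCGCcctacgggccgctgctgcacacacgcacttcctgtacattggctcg
Ndufa11, chr17:56717642-56717761, plus strand: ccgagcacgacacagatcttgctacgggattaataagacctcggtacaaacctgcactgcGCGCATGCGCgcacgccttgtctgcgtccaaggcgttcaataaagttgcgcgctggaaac
Sdha, chr13:74350241-74350360, minus strand: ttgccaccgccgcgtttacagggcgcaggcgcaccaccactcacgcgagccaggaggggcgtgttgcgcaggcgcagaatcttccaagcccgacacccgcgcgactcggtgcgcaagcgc

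The 300-base windows behind these stretches, with 250 bases before the start and 50 after it, were matched for 72 of the 89 genes (77 windows). The NRF1 core was found in 15.6% of the members' windows, against 3.79% of 19116 windows of all genes. An ETS core, CCGGAAG, was found in 23.4% against 12.1%, and a YY1 core, AAGATGGC, in 13.0% against 3.19%. Of the 9 called members with a window, 4 held at least 1 of these cores: Sdhb (NRF1 and ETS), Ndufa11 (NRF1), Ndufc1 (YY1) and Atp5pb (YY1). Among all 72 members with a window, 34 held at least 1. The window of Sdha held none of these letters, which says nothing of the factors themselves. A match is a stretch of letters and not a measured site.

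Complex II, succinate dehydrogenase, is the one complex with all subunits encoded in the nucleus, and all 4 were measured. Its catalytic pair moved in opposite directions. Sdhb, the iron-sulphur subunit that carries electrons from the flavin towards ubiquinone, had log2 intensities of 9.18, 9.19, 9.35, 9.14 and 9.54 in the ATC tumours, against 8.68, 8.76, 8.61, 8.83 and 8.63 in the PTC tumours. Every ATC value lay above every PTC value. Its mean was 9.28 ± 0.16 in ATC and 8.70 ± 0.092 in PTC (SD, n = 5 each), a difference of 0.58 (SE 0.088, adjusted p = 0.0011) or 1.49-fold, the largest of the 89. Sdha, the flavoprotein that oxidises succinate, had 10.72, 10.98, 10.83, 10.53 and 11.25 in the ATC tumours, against 11.15, 11.21, 11.29, 11.28 and 11.47 in the PTC tumours. ATC replicate 5 lay inside the PTC range and the other 4 ATC tumours lay below it. Sdha averaged 10.86 ± 0.27 in ATC and 11.28 ± 0.12 in PTC (SD, n = 5 each), a difference of −0.42 (SE 0.12, adjusted p = 0.0313). The call ended without ATC replicate 1, 3 or 4 or PTC replicate 3, 4 or 5, with adjusted p between 0.0579 and 0.0723. It also ended with the skeletal muscle marker mean as a covariate, at −0.39 and an adjusted p of 0.0592.

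The membrane anchors that hold the ubiquinone site, Sdhc and Sdhd, did not pass the test. Sdhd had a difference of 0.26 (adjusted p = 0.108), which passed without ATC replicate 1 (0.32, adjusted p = 0.0490), and Sdhc a difference of −0.097 (adjusted p = 0.361). Within each tumour, the level of Sdhb minus that of Sdha, set relative to its PTC mean, was 0.79 to 1.19 log2 units in the 5 ATC tumours and −0.26 to 0.13 in the 5 PTC tumours. This quantity was looked at after both genes had been seen to differ and is given as a description. In ATC replicate 5, Sdhb was highest (0.84 above the PTC mean) while Sdha was near the PTC mean (−0.035), and ATC replicate 4 had the lowest ATC value of both genes, with Sdhb at 0.44 and Sdha at −0.75.

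**Figure D3:**
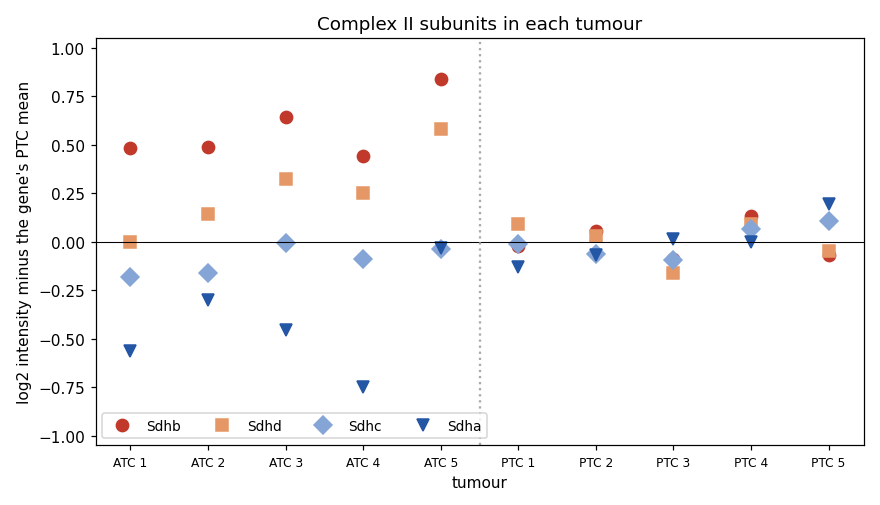
Level of the 4 complex II genes in each tumour (log2 intensity minus the gene's PTC mean, vertical axis). In all 5 ATC tumours Sdhb is at 0.44 or more and Sdha is below 0, while in the PTC tumours the 4 genes lie close together.

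Complex I, NADH dehydrogenase, had 2 of 34 genes called (5.88%, beside 21.2% of all genes), both higher in ATC. Both are accessory subunits of the membrane arm, the part that pumps protons. The membrane arm genes numbered 19, of which 10.5% were called. Ndufc1 had 9.31, 9.47, 9.40, 9.29 and 9.57 in the ATC tumours, against 9.11, 8.92, 9.05, 9.05 and 9.03 in the PTC tumours. The groups did not overlap. The difference was 0.38 (SE 0.073, adjusted p = 0.0040; mean 9.41 ± 0.12 in ATC and 9.03 ± 0.071 in PTC, SD, n = 5 each), and a second Ndufc1 probe set gave 0.42 (adjusted p = 0.0088 over all probe sets). Ndufa11 had 9.74, 9.92, 9.73, 10.004 and 9.81 in the ATC tumours, against 9.77, 9.25, 9.42, 9.60 and 8.90 in the PTC tumours. PTC replicate 1 lay inside the ATC range, and PTC replicate 5 was the lowest of all. The difference was 0.45 (SE 0.14, adjusted p = 0.0432), and it lost the call without any 1 of 8 tumours (all ATC replicates and PTC replicates 2, 3 and 5), with adjusted p between 0.0551 and 0.0928. A second Ndufa11 probe set gave 0.22 (adjusted p = 0.115 over all probe sets), and the mean of both gave 0.34 (adjusted p = 0.0532). After quantile normalization Ndufa11 did not pass (0.39, adjusted p = 0.109).

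The 15 genes of the matrix arm, which binds NADH and hands electrons to ubiquinone, gave 0 calls in limma. At an unadjusted p under 0.05 were 3 of them (20%). Of all genes 21.2% were called and 32.7% had an unadjusted p under 0.05. In the NADH-binding N module of the matrix arm (8 genes) 4 differences were positive and 4 negative. Ndufv1, which holds the flavin that accepts electrons from NADH, differed by 0.19 (adjusted p = 0.297), and by 0.097 without ATC replicate 5. Ndufs1, the large iron-sulphur subunit next to it, differed by 0.20 (adjusted p = 0.163). Ndufa2, an accessory subunit of the same module, had the largest uncalled difference, 0.41 (adjusted p = 0.0624), and passed without ATC replicate 5 (0.48, adjusted p = 0.0338). In the ubiquinone-binding Q module all 7 differences were positive, from 0.018 to 0.23. The membrane arm ran from −0.33 to 0.45. Its other non-overlapping gene, Ndufb5, chosen here because its groups were apart, differed by 0.24 (adjusted p = 0.0815). The median over the 34 complex I genes was 0.11, and 0.065 without ATC replicate 5. The 7 assembly factors, which help to build complex I but are not part of it, ran from −0.24 to 0.27 with a median of 0.051 and 0 calls in limma, 1 of them at an unadjusted p under 0.05. Their median ranged from 0.0075 without ATC replicate 2 to 0.096 without ATC replicate 3.

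Complex III, which passes electrons from ubiquinol to cytochrome c, had 1 of 9 genes called (11.1%, beside 21.2% of all genes). Cyc1, the haem protein cytochrome c1, had 9.45, 9.25, 9.52, 8.99 and 9.54 in the ATC tumours, against 8.87, 8.97, 8.99, 9.06 and 9.01 in the PTC tumours. ATC replicate 4 lay inside the PTC range, and the other 4 ATC tumours lay above it. The difference was 0.37 (SE 0.11, adjusted p = 0.0274; mean 9.35 ± 0.23 in ATC and 8.98 ± 0.070 in PTC, SD, n = 5 each). The call ended without ATC replicate 1, 3 or 5 or PTC replicate 1, 2 or 3, with adjusted p between 0.0538 and 0.0667. The Rieske iron-sulphur protein Uqcrfs1, the partner of cytochrome c1 in electron transfer, differed by 0.019 (95% interval −0.16 to 0.19, adjusted p = 0.903). Of the core proteins, Uqcrc1 had a difference of 0.21 (adjusted p = 0.352), which was 0.060 without ATC replicate 5, and Uqcrc2 one of −0.17 (adjusted p = 0.177). The median of complex III was 0.019 as deposited and −0.049 after quantile normalization and −0.0051 with array weights, so it had no settled sign.

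Complex IV, cytochrome c oxidase, had 1 gene higher and 2 lower of 18 (16.7%, beside 21.2% of all genes). Of the 18 differences 13 were negative, beside 10728 of all 19938. The median was −0.080, and −0.053 and −0.042 without PTC replicate 1 and PTC replicate 4. With the skeletal muscle marker mean as a covariate it was −0.022. The 10 common subunits, with 1 higher and 1 lower, had a median of −0.040. The 8 restricted isoforms, with 1 lower, had a median of −0.19. Cox5a, a nuclear-encoded subunit on the matrix side, had 10.22, 10.02, 9.97, 9.93 and 10.20 in the ATC tumours, against 9.68, 9.73, 9.77, 9.74 and 9.21 in the PTC tumours. The groups did not overlap, and PTC replicate 5 stood far below the other PTC tumours. The difference was 0.44 (SE 0.11, adjusted p = 0.0188; mean 10.07 ± 0.13 in ATC and 9.63 ± 0.24 in PTC, SD, n = 5 each). Cox6c, a small subunit of the inner membrane, had 11.77, 11.79, 11.79, 11.56 and 12.06 in the ATC tumours, against 11.95, 12.24, 12.15, 12.21 and 12.19 in the PTC tumours. ATC replicate 5 was above PTC replicate 1, and the other 4 ATC tumours were below all PTC tumours. The difference was −0.36 (SE 0.095, adjusted p = 0.0214; mean 11.79 ± 0.18 in ATC and 12.15 ± 0.11 in PTC, SD, n = 5 each), and a second Cox6c probe set gave −0.30, which did not pass (adjusted p = 0.0854 over all probe sets). Without PTC replicate 2 or PTC replicate 4 the adjusted p of Cox6c was 0.0507 and 0.0536. The regulatory subunit Cox4i1 differed by −0.068 (adjusted p = 0.734) and the zinc-binding subunit Cox5b by 0.034 (adjusted p = 0.809).

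**Figure D4:**
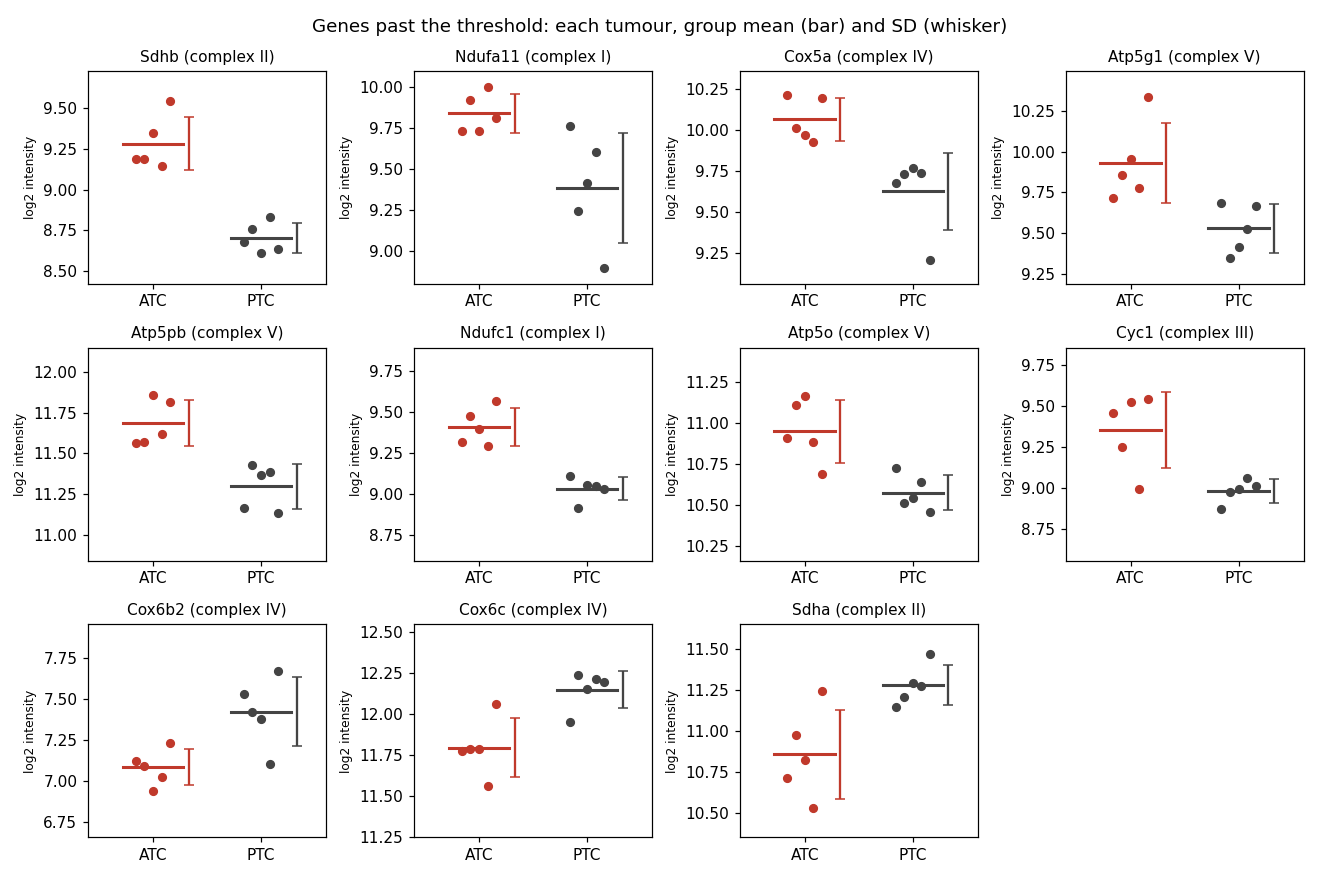
Log2 intensity (vertical axis, each panel with its own range) of the 11 called genes in each tumour, ATC left and PTC right, with the group mean as a horizontal bar and the SD as a whisker (n = 5 each). Sdhb, Cox5a, Atp5g1, Atp5pb and Ndufc1 have no overlap between groups, and the other 6 genes have some.

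Of the 8 complex IV isoforms that are normally restricted to some tissues or conditions, 1 was lower in ATC and 7 did not pass. Cox6b2, known from testis, had 7.13, 7.09, 6.94, 7.03 and 7.23 in the ATC tumours, against 7.53, 7.42, 7.38, 7.11 and 7.67 in the PTC tumours. PTC replicate 4 lay among the ATC values. These levels are near the array medians of 7.25 to 7.34, and whether Cox6b2 is detected at all was not tested. The difference was −0.34 (SE 0.10, adjusted p = 0.0379), and it lost the call without any 1 of 8 tumours (ATC replicates 1 to 4 and PTC replicates 1, 2, 3 and 5), with adjusted p between 0.0612 and 0.0875. It also missed the threshold after quantile normalization (adjusted p = 0.0602), with array weights (0.0883) and with the muscle covariate (0.0578). Cox4i2, the lung isoform known to respond to hypoxia, differed by −0.26 (adjusted p = 0.133). Ndufa4l2, a hypoxia-responsive relative of the complex IV subunit Ndufa4, differed by −0.22 (adjusted p = 0.120).

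Cox6a2, Cox7a1 and Cox8b are the heart and skeletal muscle isoforms of complex IV. Cox8b had 7.20, 7.97, 7.21, 7.25 and 7.18 in the ATC tumours, against 7.93, 6.88, 7.21, 8.18 and 7.44 in the PTC tumours. Its high values were in ATC replicate 2, PTC replicate 1 and PTC replicate 4. The mean of 16 skeletal muscle markers ranged from 6.95 to 8.04 in ATC and from 6.81 to 8.71 in PTC, with its highest values in ATC replicates 2 and 5 and PTC replicates 1 and 4. The 16 markers gave 0 calls in limma, with 1 at an unadjusted p under 0.05, beside 21.2% and 32.7% of all genes. The part of muscle tissue in the Cox8b values was not tested. Cox8b differed by −0.17 (adjusted p = 0.695), Cox6a2 by −0.22 (adjusted p = 0.290) and Cox7a1 by 0.049 (adjusted p = 0.766). The testis isoform Cox7b2 differed by 0.013 (adjusted p = 0.941).

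Restricted isoforms and subunit c genes were also set against a common partner within the same tumour. This removes a shift of an array that is equal at all levels. A shift that depends on level is not removed, and the restricted isoforms were dimmer than their partners. The 9 pairs were tested with a two-sided exact permutation test over the 252 ways to divide the tumours. Cox6b2 relative to Cox6b1 was 0.34 log2 units lower in ATC than in PTC (exact permutation p = 0.0238, 0.214 after Benjamini-Hochberg adjustment over the 9 pairs). The other 8 pairs had unadjusted p of 0.0873 or above, so 0 of 9 pairs passed and 1 was below 0.05 before adjustment. The smallest p that 5 against 5 allows is 0.0079.

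Complex V, the ATP synthase, had 3 of 17 genes called, all higher in ATC. This is 17.6%, beside 21.2% of all genes called and 11.5% called higher. Of its 17 differences 16 were positive (median 0.15), beside 9210 of all 19938, dim genes included. With genes at or below the median level left out, the median of all genes was 0.058 and that of complex V 0.15. The median deviation of these genes from their PTC means was 0.15 in PTC replicate 1 and −0.12 in PTC replicate 5. The 17 signs need therefore not be separate observations. In the peripheral stalk, the arm that keeps the catalytic head from turning, 2 of 4 genes were called. Atp5pb, subunit b of the stalk, had 11.57, 11.57, 11.86, 11.62 and 11.81 in the ATC tumours, against 11.17, 11.43, 11.37, 11.39 and 11.13 in the PTC tumours. The groups did not overlap. Its difference was 0.39 (SE 0.090, adjusted p = 0.0106; mean 11.69 ± 0.14 in ATC and 11.30 ± 0.14 in PTC, SD, n = 5 each), and a second Atp5pb probe set gave 0.34, which did not pass (adjusted p = 0.0572 over all probe sets). Atp5o, the subunit that joins the stalk to the head, had 10.91, 11.11, 11.16, 10.88 and 10.69 in the ATC tumours, against 10.72, 10.51, 10.54, 10.64 and 10.46 in the PTC tumours. ATC replicate 5 and PTC replicate 1 overlapped. The difference of Atp5o was 0.38 (SE 0.097, adjusted p = 0.0181; mean 10.95 ± 0.19 in ATC and 10.57 ± 0.11 in PTC, SD, n = 5 each).

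The c ring turns as protons pass, and its subunit c is encoded by 3 genes that give the same mature protein. Atp5g1 had 9.71, 9.86, 9.96, 9.78 and 10.34 in the ATC tumours, against 9.69, 9.35, 9.42, 9.53 and 9.67 in the PTC tumours. The lowest ATC tumour lay just above the highest PTC tumour. The difference was 0.40 (SE 0.12, adjusted p = 0.0356; mean 9.93 ± 0.24 in ATC and 9.53 ± 0.15 in PTC, SD, n = 5 each), and a second Atp5g1 probe set gave 0.31, which did not pass (adjusted p = 0.0696 over all probe sets). Without ATC replicate 3 or PTC replicate 2, 3 or 4 the adjusted p of Atp5g1 was 0.0641 to 0.0844, and after quantile normalization it was 0.0822. Atp5g3 differed by −0.060 (adjusted p = 0.595), the only negative value in complex V. Relative to Atp5g2 within a tumour, Atp5g1 was 0.18 log2 units higher in ATC (exact permutation p = 0.238, adjusted 0.714) and Atp5g3 was 0.28 lower (exact permutation p = 0.0873, adjusted 0.393), so unequal change among the 3 subunit c genes was not shown. The catalytic head, which makes the ATP, gave 0 calls among its 5 head and central stalk genes in limma, 0 of them at an unadjusted p under 0.05. Of all genes 21.2% were called and 32.7% had an unadjusted p under 0.05. Atp5a1, the alpha subunit, differed by 0.063 (adjusted p = 0.743). The catalytic beta subunit Atp5b had a difference of 0.13 (95% interval −0.054 to 0.31, adjusted p = 0.327), which was 0.065 without ATC replicate 5.

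Some tumours moved many members at once. ATC replicate 5 was the highest ATC tumour for 39 of the 89 genes (43.8%, against 22.4% of all genes). PTC replicate 5 was the lowest PTC tumour for 39 genes (43.8%, against 21.7% of all genes). PTC replicate 4 was the lowest for 1 member (1.12%, against 15.7% of all genes) and the highest for 27 (30.3%, against 13.7%). PTC replicate 1 was the highest for 29 (32.6%, against 23.2%). Over the members, the median deviation from the other tumours of the type was 0.071 in ATC replicate 2 and 0.107 in ATC replicate 5. It was 0.082 in PTC replicate 1, 0.096 in PTC replicate 4 and negative in each other tumour. The tumours with a positive value had the highest skeletal muscle marker means, and the part of muscle tissue was not tested. Left out together, a choice made after seeing the data, ATC replicate 5 and PTC replicate 5 took the calls to 8 higher and 2 lower. In that fit Cox6b2, Cyc1 and Ndufa11 lost the call, and the complex I genes Ndufa2 and Ndufa9 gained it. The median of complex V without PTC replicate 5 was 0.080, against 0.15 with it.

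**Figure D5:**
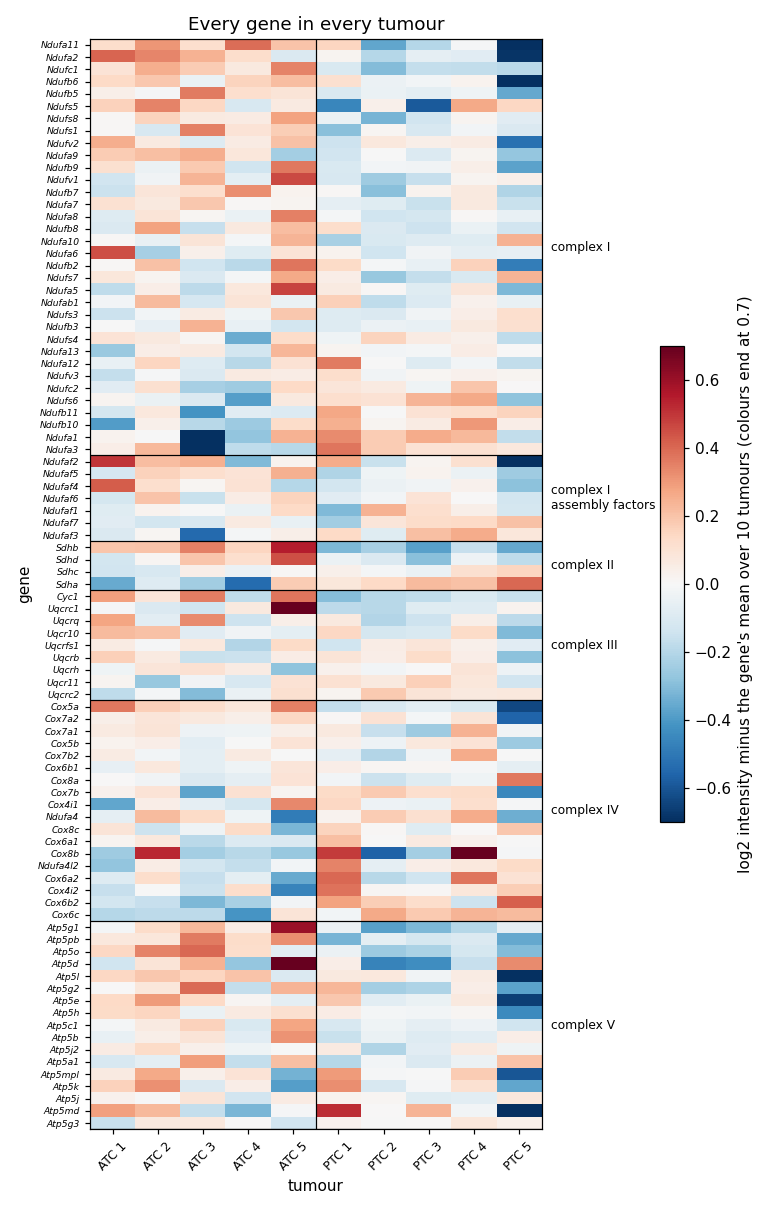
Log2 intensity of each of the 89 genes minus its mean over the 10 tumours (colour, ending at 0.7), genes in rows by complex and tumours in columns, ATC left and PTC right. ATC replicate 5 has the highest ATC value for 39 genes and PTC replicate 5 has the lowest PTC value for 39 genes.

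Cell type markers moved with the tumour type and between tumours. All 8 macrophage markers rose in ATC (median 1.34), and the array means of this list were 10.66 to 11.37 in ATC and 9.47 to 9.93 in PTC. Of 6 epithelial markers 4 fell in ATC, among them Krt7 (−3.14), Krt19 (−2.92) and Epcam (−2.73). Of 9 thyroid follicular markers 3 fell, Iyd (−2.33), Tshr (−1.67) and Slc26a4 (−0.69), and thyroglobulin (Tg), the defining product of the tissue, had a mean of 9.54 in ATC and 12.31 in PTC (adjusted p = 0.0583). The follicular markers called lower numbered 0 without ATC replicate 1 or 3 or PTC replicate 4 or 5, and 1 without ATC replicate 5 or PTC replicate 1 or 3 and with the replicate block. Leaving out the 4 tumours with the highest muscle markers (ATC replicates 2 and 5, PTC replicates 1 and 4), a choice made after seeing the data, took the called members to 3 higher and 3 lower, while 10.3% of all genes were called in that fit of 3 against 3. Ndufc1, Cyc1, Cox5a, Atp5g1 and Atp5pb then lost their calls at differences of 0.33 to 0.47. Sdhb, Ndufa11, Atp5o, Sdha, Cox6c and Cox6b2 remained called. The part of other cell types in the remaining results was not tested.

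Machinery around the complexes was followed in lists of related genes. Of the subunits encoded by mitochondrial DNA 2 were measured: COX2 of complex IV differed by 0.018 (adjusted p = 0.889) and ND3 of complex I by 0.0051 (adjusted p = 0.978). Of 40 assembly factors 4 rose and 1 fell, 12.5% of the list beside 21.2% of all genes. The number higher was 8 without ATC replicate 2, 7 with arrays centred on their medians, and 7 with 0 lower under each of the 2 filters on dim genes. Lyrm7, which loads the Rieske protein into complex III, fell by 0.69 (adjusted p = 0.0015). Uqcc2, needed to make cytochrome b of complex III, differed by 0.55 (adjusted p = 0.0014), and Tmem70, an ATP synthase assembly factor, by 0.45 (adjusted p = 0.0031). Among 16 genes of electron carriers and supply there were 0 calls in limma, and 1 call without ATC replicate 1 or 2. At an unadjusted p under 0.05 were 3 of them, beside 32.7% of all genes.

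In the lists for making mitochondria all calls were higher in ATC. Of 24 genes of the import machinery, which brings nuclear-encoded proteins into the organelle, 10 rose and 0 fell (41.7%, median 0.18). Timm8a1 differed by 0.94 (adjusted p = 0.0018), Tomm70a by 0.73 (adjusted p = 0.0034) and Tomm22 by 0.64 (adjusted p = 0.0033). Of 77 mitochondrial ribosomal proteins, which translate the mitochondrial messages, 17 rose and 0 fell (22.1%, median 0.17). Mrpl13 differed by 0.88 (adjusted p = 0.0017), Mrpl47 by 0.73 (adjusted p = 0.0028) and Mrpl45 by 0.62 (adjusted p = 0.0102). Without ATC replicate 3 or PTC replicate 3 the import genes called higher numbered 6, and without PTC replicate 1, 3 or 4 the ribosomal proteins called higher numbered 11, 11 and 10. Without the 4 muscle-high tumours the counts were 4 and 5. Of all genes 21.2% were called and 11.5% were called higher. The share of the ribosomal proteins called in either direction was near that of all genes. With genes at or below the median level left out, 10 of 22 import genes and 18 of 75 ribosomal proteins were called, all higher. In that fit 34.8% of all genes were called, and 60.7% of those calls were higher.

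Of 19 regulators of mitochondrial gene expression 6 rose and 1 fell (36.8% beside 21.2% of all genes, median 0.19). The number higher was 1 without ATC replicate 1 or 3 or PTC replicate 5, 2 without PTC replicate 4, and 3 without ATC replicate 5 or PTC replicate 1, 2 or 3. With the replicate block 3 were higher and 0 lower, and without the 4 muscle-high tumours none passed (0 higher and 0 lower in limma). Ppargc1a, a coactivator of mitochondrial genes, fell by 1.30 (mean 7.25 ± 0.62 in ATC and 8.55 ± 0.54 in PTC, SD, n = 5 each, adjusted p = 0.0127). Lrpprc, which stabilises mitochondrial messages, differed by 0.57 (adjusted p = 0.0036), and Gabpa, the DNA-binding subunit of GABP, by 0.44 (adjusted p = 0.0252). Nrf1 and Yy1, named here because their cores were searched, did not pass, with 0.15 (adjusted p = 0.266) and 0.24 (adjusted p = 0.0938).

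The pathways that feed the complexes had calls in both directions, and several were lost without 1 tumour. Of 18 citric acid cycle and pyruvate dehydrogenase genes 3 rose and 3 fell (33.3% beside 21.2% of all genes). Their median was −0.029 as deposited and 0.0086 with arrays centred on their medians, so it had no settled sign. Pcx, which makes oxaloacetate from pyruvate, fell by 0.47 (adjusted p = 0.0022), Sucla2, a subunit of succinyl-CoA synthetase, fell by 0.40 (adjusted p = 0.0201), and Idh3a, of isocitrate dehydrogenase, differed by 0.37 (adjusted p = 0.0110). Of 19 glycolysis genes 4 rose and 1 fell (26.3%, near the 21.2% of all genes), with a median of 0.26 that was 0.053 without ATC replicate 3. The number higher was 1 without ATC replicate 5, PTC replicate 3 or PTC replicate 5 and 2 without PTC replicate 1 or 4. Ldhb, a lactate dehydrogenase subunit, fell by 0.90 (adjusted p = 0.0328), a call lost without ATC replicate 1 or 3 or PTC replicate 2, 3, 4 or 5 and with the muscle covariate. Pdk1, which inhibits pyruvate dehydrogenase, differed by 0.77 (adjusted p = 0.0120), and Pgam1, a glycolytic mutase, by 0.66 (adjusted p = 0.0247). Of 12 genes of ADP, phosphate and energy exchange across the mitochondrial membranes 1 rose and 1 fell (16.7% called, below the 21.2% of all genes). Vdac2 rose by 0.29 (adjusted p = 0.0356), and the mitochondrial creatine kinase Ckmt1 fell by 1.71 (adjusted p = 0.00019). The call of Vdac2 was lost without ATC replicate 1 or 2 or PTC replicate 1, 2, 3 or 5 and with the replicate block. Without the 4 muscle-high tumours the citric acid cycle list had 0 higher and 2 lower, glycolysis 0 higher and 1 lower, and the exchange genes 0 higher and 1 lower, in limma.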

How the data were processed

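RNA was labelled with biotin for Affymetrix whole-transcript arrays, according to the labels. The authors deposited 1 table of 35556 probe sets with no stated scale. The deposited values were taken to be log2 intensities that the authors had normalized by unstated steps, since the table spans 2.79 to 14.15 and the arrays have a median of 7.25 to 7.34, and no further scaling was applied. Affymetrix Power Tools and limma appear in the submitters' processing notes. Neither background correction nor build is given in the sources used here. The table has no detection calls, so low intensities may hide part of a difference. The number of arrays limits the precision.

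Of the probe sets, 21789 had 1 platform symbol, 1621 several and 12146 none here. Each single symbol kept its probe set with the highest mean, giving 19938 genes. Groups and replicate numbers came from the sample titles. Differences (ATC minus PTC) came from limma 3.58.1 in R 4.3.3 (lmFit, eBayes) on all 10 arrays, no covariate, two-sided, with Benjamini-Hochberg adjustment at 0.05. Tested on simulated data for this comparison (19938 genes, the called differences in place), the fit recovered 42% of genes changed by 0.25, 84% at 0.5 and 100% at 1 log2 unit, with 3.02% of 3704 calls false. With no other differences in place and 50 genes changed at each size, it recovered 6%, 52%, 84% and 96% at 0.25, 0.5, 1 and 2 log2 units. The simulated noise was independent between genes, while in these data some tumours moved many members at once. The simulated rates may therefore not hold for these data. Isoform pairs used exact permutation. Promoters came from RefSeq tables (Python 3.11.15).

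Genes named are the called members, the 3 largest absolute differences of each complex, a set of classical subunits, the restricted isoforms, and of each related list up to 3 called genes with the largest differences. Ndufb5, Nrf1, Yy1, Tg, COX2 and ND3 were added where the text needs them. The members, lists and alternatives were chosen with earlier results of these data known. Alternatives covered the replicate block, the probe set rule, filters on dim genes, scaling, variance estimation, array weights, a muscle covariate and each replicate left out. The labels do not say whether replicate numbers pair the tumours, and the main fit did not pair them. The p53 level is not analysed here.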

Additional observations from a re-analysis of the deposited data

Results flagged for a closer look

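Among the 30 named genes, 3 values stood apart from the rest of their group of 5 by Dixon's test at the 95% level, of 60 group tests. Chance flags about 1 in 20 such groups. Uqcrc1 in ATC replicate 5 was 8.92, with the next ATC tumour at 8.28. Cox5a in PTC replicate 5 was 9.21, with the next PTC tumour at 9.68, and its difference without that tumour is among those that kept the call. Cox8b in ATC replicate 2 was 7.97, with the next ATC tumour at 7.25. Over all 89 genes, 17 of 178 group tests had a tumour that stood apart, 9 of them with PTC replicate 5 (8 low values) and 3 with ATC replicate 3.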

How the results depend on the processing

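No alternative turned the direction of a called gene. Sdhb and Atp5o were called under all 22 alternatives, with differences of 0.50 to 0.61 and 0.29 to 0.48. Genes called higher numbered 5 to 8 and genes called lower 1 to 4 when 1 tumour was left out, beside 8 and 3. With the muscle marker mean as a covariate 1 gene was lower, and without the 4 tumours of high muscle markers, chosen after seeing the data, 3 genes were higher, in a fit with fewer tumours that called 10.3% of all genes. Quantile normalization gave 6 higher and 4 lower, and centring on array medians 9 and 3, and the share of higher among all calls went to 52.1% and 61.1%, against 54.3%. Quantile normalization ended the calls of Atp5g1, Cox6b2 and Ndufa11 and added Ndufb10 and Ndufb11, and centring added Ndufs8. Array weights ended the call of Cox6b2 and added Ndufa2, and the muscle covariate ended those of Cox6b2 and Sdha and added Ndufs8. The medians of complexes I, IV and V kept their sign under both scalings (0.063 and 0.14, −0.12 and −0.043, 0.089 and 0.19). The replicate block gave 6 higher and 3 lower: Cox5a, Cyc1 and Ndufa11 lost the call and Ndufa2 gained it. Same-numbered tumours correlated between −0.086 and 0.12, and in 1 of 5 numbers was the partner the best match. These correlations cannot settle whether same-numbered tumours share more than a label. The pairs were run with the probe set mean, quantile normalization, each tumour left out and the paired sign flip, and gave 0 calls in these. Their smallest adjusted p was 0.0714, without PTC replicate 4, and the smallest p the sign flip allows is 0.0625.

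Uncalled genes near 0 changed sign, and the cause was not tested. Under quantile normalization Uqcrfs1 was −0.049, Cox5b −0.058 and Atp5a1 −0.014. With array weights Uqcrfs1 was −0.028, Cox5b −0.0090 and Cox7b2 −0.0061. The muscle covariate put Cox8b at 0.016. Without ATC replicate 5 and PTC replicate 5 Uqcrfs1 was −0.029 and Cox5b −0.045, and without the muscle-high tumours Uqcrfs1 was −0.045, Atp5a1 −0.023 and Cox8b 0.045. Over the fits without 1 tumour the ranges were −0.014 to 0.073 for Uqcrfs1, −0.16 to 0.015 for Cox4i1, −0.025 to 0.062 for Cox5b, −0.0024 to 0.12 for Atp5a1, −0.0069 to 0.12 for Cox7a1 and −0.037 to 0.080 for Cox7b2. Signal over background is not in the table, so how far it limits dim genes such as Cox7b2 was not tested.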
